A study of Mus musculus with 2 samples.

Results

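Desert hedgehog signalling was followed through 7 genes in the somatic cells of mouse foetal gonads: the ligand *Dhh*, the receptors and membrane proteins *Ptch1*, *Smo* and *Hhip*, and the transcription factors *Gli1*, *Gli2* and *Gli3*. The genes were taken by symbol from a table of 42422 genes, and all 7 were among the 15125 that passed the filter on low counts and were tested. The set was put together with earlier results of the same data known, so its choice cannot be called independent of these libraries.

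The somatic cells were GFP-negative cells sorted from gonads of E12.5 embryos, from crosses of ASMU Swiss with Oct4(Pou5fl)-eGFP mice on a 129svJT2 background, in which the transgene marks germ cells with GFP. The genotype is given as WT throughout. There were 40 libraries in 10 groups of 4, each library from several pooled gonads of 1 sex, which the study assigned by eye from the presence of testis cords. Groups XX 0 h and XY 0 h were sorted without culture. The other groups were cultured as gonad with mesonephros for 24 h or 72 h, the mesonephros being cut away before sorting: XX and XY with the vehicle DMSO at both times, and XY with 500 nM MEKi (PD0325901, an inhibitor of the kinases MEK1/2) or 500 nM FGFRi (BGJ398, an inhibitor of the FGF receptors FGFR1-3) at both times. The libraries belonged to 2 sets of 20. Set 3 held both 0 h groups, both 24 h DMSO groups and MEKi at 24 h, and set 4 held FGFRi at 24 h and all 72 h groups. FGFRi at 24 h therefore cannot be told apart from the set, and levels at 24 h and 72 h stand side by side without a test.

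Total counts ranged from 1380707 to 4836550 per library, with a median of 2248854. Levels are CPM, counts scaled to equal library totals, on library sizes scaled by the TMM method, given as mean ± SD of 4 libraries. Because each transcript is counted at its 3′ end and per molecule, a CPM value is not divided by length, and levels of different genes were not compared with each other. Markers of the labelled cells were present: 9 of 9 Sertoli cell markers, including *Sox9* and *Amh*, were counted in XY somatic cells, where their summed level was 1470 to 1583 CPM at 0 h against 114 to 220 CPM in XX. In XX the pre-granulosa markers, such as *Foxl2* and *Fst*, summed to 1411 to 1788 CPM at 0 h, against 92.6 to 117 CPM in XY. Germ cell markers summed to between 9.79 and 424 CPM and were highest in XY 24 h MEKi, and their part in the results at that time was not tested. Markers of mesonephros or duct epithelium summed to 17.1 to 67.4 CPM. Nothing in the labels says that the pools of a group came from separate litters or days, so the p-values measure the spread between these pools only.

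Hedgehog ligands are secreted, lipid-modified proteins that bind Patched receptors on neighbouring cells. Without ligand, PTCH1 keeps SMO inactive and GLI proteins, GLI3 above all, act as repressors. With ligand, SMO signals through the primary cilium, GLI2 becomes an activator, and transcription of *Gli1*, *Ptch1* and *Hhip* rises, so that these 3 genes are widely used as a readout of the pathway. In the foetal testis, *Dhh* is made by Sertoli cells in the cords and is received by interstitial cells that express *Ptch1*, among them progenitors of foetal Leydig cells.

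All members are protein-coding genes. In GRCm39 with GENCODE release M39, *Dhh* (ENSMUSG00000023000.5) lies on chromosome 15 from 98789033 to 98796439, *Ptch1* (ENSMUSG00000021466.12) on chromosome 13 from 63656142 to 63721412, and *Smo* (ENSMUSG00000001761.7) on chromosome 6 from 29735407 to 29762532. *Hhip* (ENSMUSG00000064325.4) lies on chromosome 8 from 80692480 to 80784658, *Gli1* (ENSMUSG00000025407.7) on chromosome 10 from 127165751 to 127177865, *Gli2* (ENSMUSG00000048402.14) on chromosome 1 from 118761858 to 118982598, and *Gli3* (ENSMUSG00000021318.15) on chromosome 13 from 15637809 to 15904611. The *Dhh* gene overlaps *Rhebl1* on the same strand. *Rhebl1* had 584 counts over all libraries against 6030 for *Dhh*, and reads from the shared part could not be assigned with certainty. *Ptch1* and *Smo* overlap *A930032L01Rik* and *Gm13717* on their own strand, with 110 and 794 counts against 11908 for *Ptch1* and 7218 for *Smo*.

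The promoters of the ligand gene and of the readout genes *Ptch1* and *Hhip*, 3 members on which the differences below turn, are shown with the 250 bases before the start of transcription, from RefSeq on build GRCm38.p6. The GLI binding motif GACCACCCA was searched on both strands in windows that also held the 50 bases after the start. An exact match was present in 0 of the 6 member promoters in the table, which lacked an entry for *Gli1*, and in 0.253% of all 32851 promoters. With 1 mismatch the figures were 0 of 6 and 6.74%. With 2 mismatches they were 4 of 6 and 58.3%. Capitals mark the windows closest to the motif, which had 2 mismatches in *Dhh* and *Hhip* and 3 in *Ptch1*. Absence of these letters says nothing of GLI binding elsewhere.
*Dhh*, GRCm38.p6 chr15:98898541-98898790, minus strand: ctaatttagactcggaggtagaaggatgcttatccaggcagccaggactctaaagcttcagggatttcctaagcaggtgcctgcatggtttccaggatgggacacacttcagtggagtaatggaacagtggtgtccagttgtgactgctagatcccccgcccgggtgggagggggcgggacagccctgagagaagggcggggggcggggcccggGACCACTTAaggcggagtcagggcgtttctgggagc
*Ptch1*, GRCm38.p6 chr13:63565736-63565985, minus strand: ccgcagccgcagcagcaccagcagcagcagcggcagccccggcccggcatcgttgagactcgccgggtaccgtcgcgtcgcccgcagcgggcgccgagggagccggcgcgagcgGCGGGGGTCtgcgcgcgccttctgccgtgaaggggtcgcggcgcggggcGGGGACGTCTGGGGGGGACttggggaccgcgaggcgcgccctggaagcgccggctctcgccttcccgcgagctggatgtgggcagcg
*Hhip*, GRCm38.p6 chr8:80058009-80058258, minus strand: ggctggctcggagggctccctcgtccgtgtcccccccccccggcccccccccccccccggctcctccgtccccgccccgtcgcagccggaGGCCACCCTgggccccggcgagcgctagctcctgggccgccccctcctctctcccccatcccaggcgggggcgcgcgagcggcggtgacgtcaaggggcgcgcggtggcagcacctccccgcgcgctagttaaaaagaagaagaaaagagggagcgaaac

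The XX and XY gonads were compared first, since *Dhh* is a gene of the testis. *Dhh*, *Ptch1*, *Hhip*, *Gli1* and *Gli2* were higher in XY than in XX at 0 h, 24 h and 72 h, by 2.39-fold to 26.4-fold. For each of these 5 genes the highest of the 12 XX libraries lay below the lowest of the 28 XY libraries, inhibitor-treated libraries included. *Smo* and *Gli3* were not called at any of the 3 times. Genes were called at a Benjamini-Hochberg adjusted p (FDR) below 0.05 over all genes tested, with edgeR's quasi-likelihood test, and a change of 1.5-fold or more. The 5 of 7 members called lower in XX stood against 9.32% of all genes tested at 0 h, 10.3% at 24 h and 10.8% at 72 h.

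**Figure D1:**
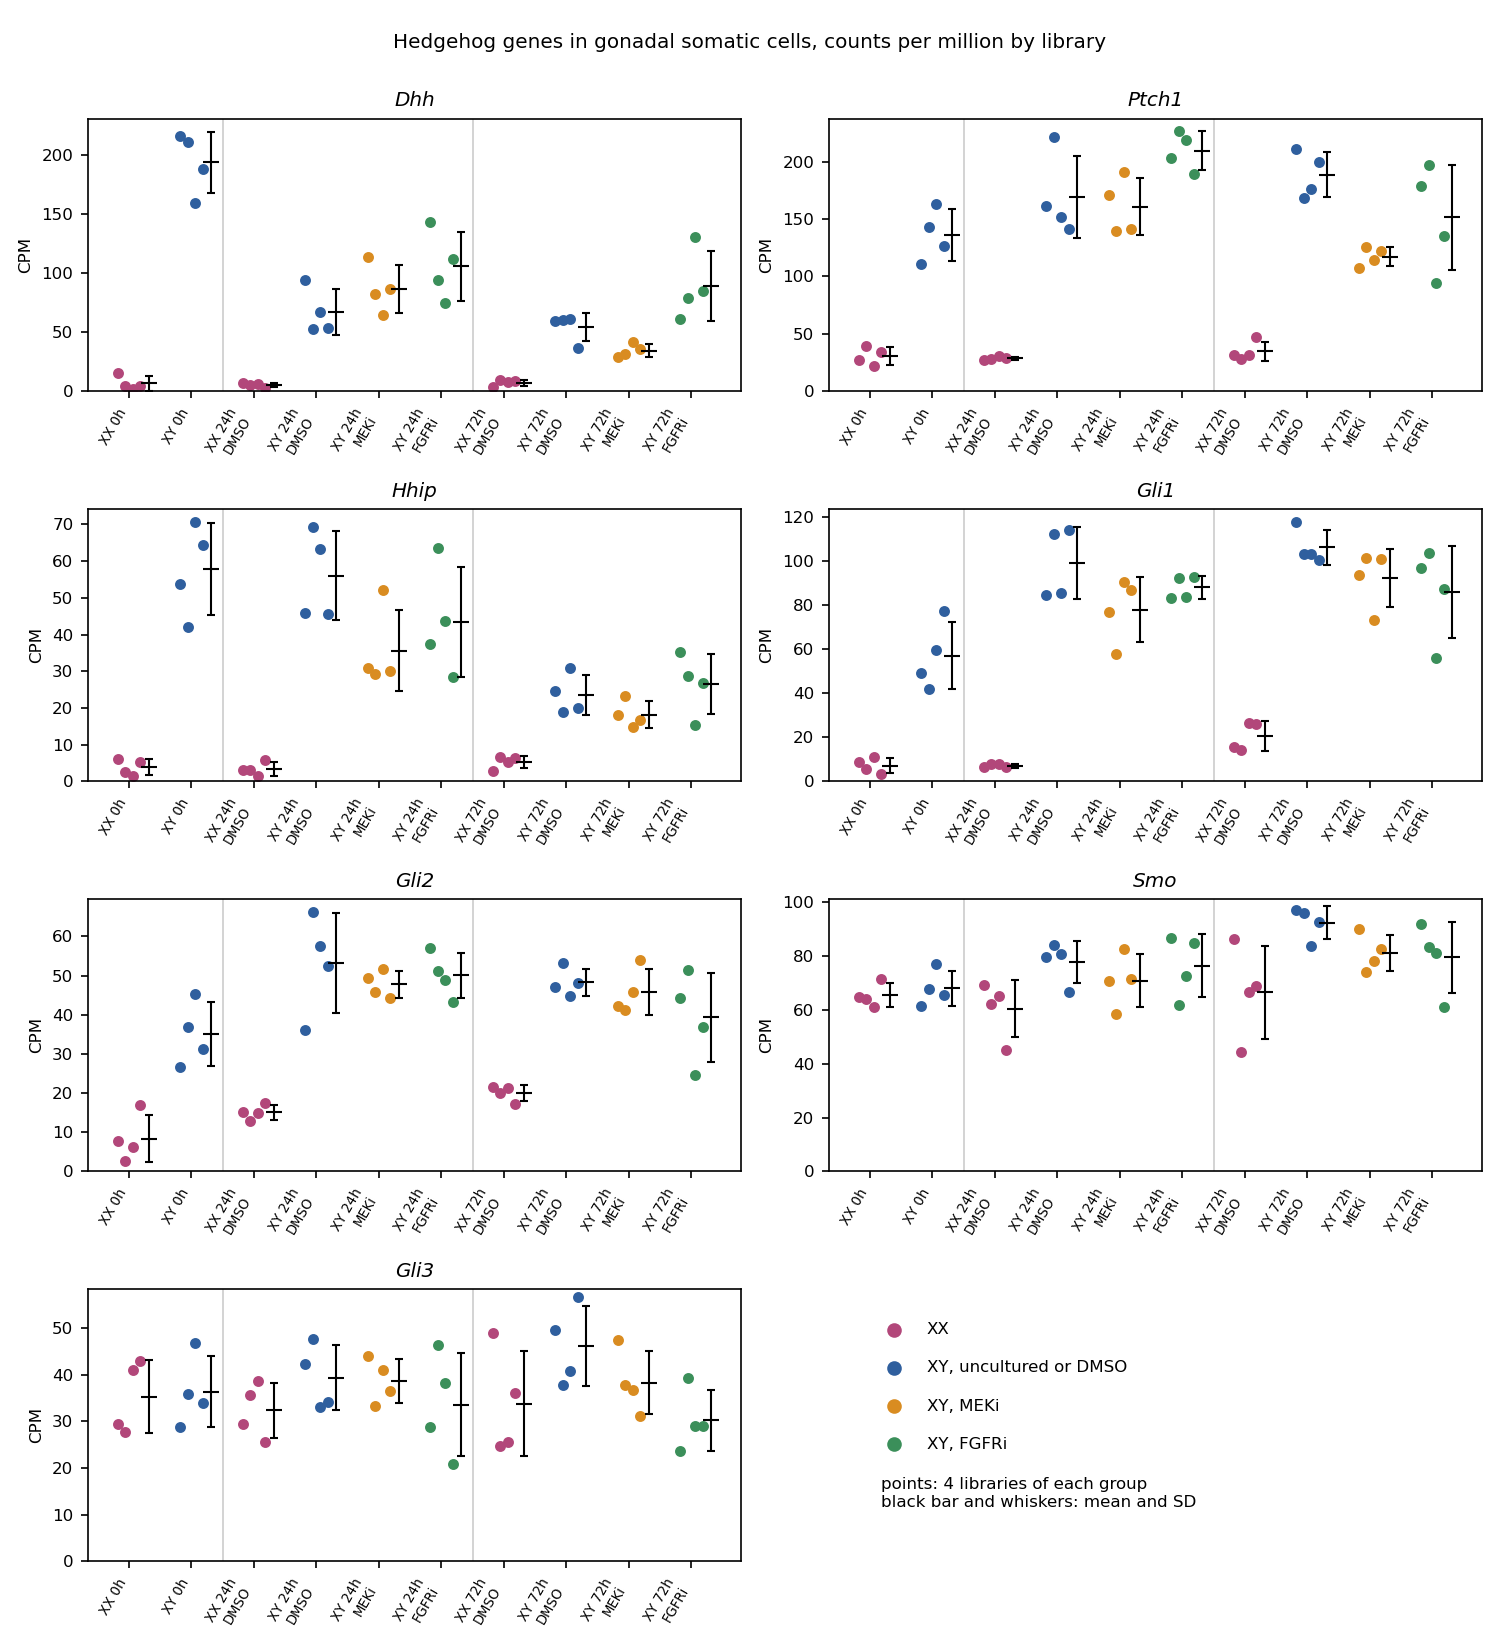
CPM of the 7 hedgehog genes in each of the 40 libraries, 1 panel a gene, by group on the x axis, with points for libraries and a black bar with whiskers for the mean and SD of 4 libraries; grey lines separate 0 h, 24 h and 72 h. XX libraries lie at the bottom of the panels of *Dhh*, *Ptch1*, *Hhip*, *Gli1* and *Gli2*, with *Dhh* at most 15.8 CPM in XX and at least 28.9 CPM in XY, and lie among the XY libraries in the panels of *Smo* and *Gli3*.

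The ligand showed the widest span. Before culture, *Dhh* was at 15.8, 4.86, 1.55 and 4.90 CPM in the XX libraries and at 216, 211, 160 and 189 CPM in the XY libraries. The groups were far apart, and 1 XX library stood above the rest, whose counts were 2 to 13. The log2 fold change, XX minus XY, was -4.72 (SE 0.285, FDR 1.22e-19 by edgeR). At 24 h in DMSO, *Dhh* was at 5.39 ± 1.57 CPM in XX and 67.2 ± 19.4 CPM in XY (SD, n = 4), a log2 difference of -3.62. At 72 h it was at 7.21 ± 2.71 CPM in XX and 54.4 ± 11.9 CPM in XY, a log2 difference of -2.92. Without the high XX library at 0 h (F2) the first of these was -5.53. The change in the difference from 0 h to 24 h was 1.10 on the log2 scale (SE 0.475, FDR 0.184, edgeR) and was not called. In bulk RNA, fewer cells of a type and less RNA per cell cannot be told apart, so a lower *Dhh* level may stand for either. Schwann cell precursors are another known source of *Dhh*. Of 5 of their markers 3 passed the filter. *Erbb3* and *Sox10* were called lower in XX at all 3 times, and the other marker tested was called at none of them. The list summed to 8.52 to 18.5 CPM in XX and 38.5 to 59.7 CPM in XY at 0 h, to 14.02 to 22.2 and 18.7 to 49.2 CPM at 24 h, and to 9.45 to 20.4 and 28.6 to 42.7 CPM at 72 h. The Sertoli list was lower in XX too, with 9, 7 and 7 of 9 markers called. *Sox10*, but not *Erbb3*, was also among the 5 genes most like *Dhh* over the 10 group means (Pearson r 0.980). So were the Sertoli markers *Sox9* and *Aard*. Which cells the *Sox10* counts came from was not tested. The part of either list in the *Dhh* differences was not tested.

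*Ptch1*, the receptor, was at 26.9, 39.3, 21.7 and 33.9 CPM in the XX libraries at 0 h, against 111, 143, 163 and 126 CPM in XY. At 72 h in DMSO the XX libraries held 31.5, 28.4, 31.9 and 47.0 CPM and the XY libraries 211, 169, 176 and 200 CPM. The XX minus XY difference was -2.12 at 0 h (SE 0.178), -2.56 at 24 h (SE 0.170) and -2.45 at 72 h (SE 0.172), with edgeR FDRs of 2.04e-14, 3.59e-18 and 4.21e-17. The difference changed by -0.44 from 0 h to 24 h (95% interval -0.94 to 0.06) and by 0.11 from 24 h to 72 h, and neither change was called. *Hhip*, a membrane protein that binds and sequesters ligand, was at 1.45 to 6.50 CPM in all XX libraries. In XY it was at 57.8 ± 12.6 CPM at 0 h, 56.1 ± 12.2 CPM at 24 h and 23.6 ± 5.47 CPM at 72 h in DMSO (SD, n = 4).

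*Gli1*, an activator that is itself a target of the pathway, was at 8.54, 5.74, 10.8 and 3.39 CPM in XX at 0 h and at 49.2, 42.1, 59.8 and 77.4 CPM in XY. After 24 h in DMSO the XX libraries stayed between 6.31 and 7.74 CPM while the XY libraries reached 84.5 to 114 CPM. At 72 h the XX libraries held 15.5, 14.2, 26.5 and 26.1 CPM and the XY libraries 100 to 118 CPM. The differences on the log2 scale were -3.11 at 0 h, -3.81 at 24 h and -2.33 at 72 h. *Gli2*, the main activator on arrival of ligand, was at 8.37 ± 6.10, 15.1 ± 1.85 and 20.0 ± 1.97 CPM in XX and at 35.1 ± 8.07, 53.1 ± 12.8 and 48.3 ± 3.53 CPM in XY at 0 h, 24 h and 72 h (SD, n = 4). Its log2 differences were -1.98, -1.84 and -1.26, and without XX library F5 the difference at 0 h was -2.68.

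Markers of other cells also differed between XX and XY. Of 8 interstitial progenitor markers, 4, 7 and 6 were called lower in XX at 0 h, 24 h and 72 h, and 1, 1 and 0 higher. The list summed to 1136 to 1312 CPM in XX and 1424 to 1742 CPM in XY at 0 h, to 904 to 1095 and 1879 to 2180 CPM at 24 h, and to 995 to 1231 and 2048 to 2607 CPM at 72 h. Of 6 endothelial markers, 4, 6 and 0 were called lower in XX. The part of these lists in the differences of *Ptch1*, *Hhip*, *Gli1* and *Gli2* was not tested.

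The signal transducer *Smo* and the repressor *Gli3* were counted in every library of both sexes, with ranges that overlapped at all 3 times. *Smo* was at 65.4 ± 4.41 CPM in XX and 68.0 ± 6.52 CPM in XY at 0 h. At 24 h its log2 difference of -0.37 passed the FDR (0.0395, edgeR) but at 1.29-fold fell short of the fold threshold. At 72 h *Smo* was at 66.6 ± 17.3 CPM in XX and 92.5 ± 6.08 CPM in XY. The log2 difference of -0.47 at 72 h passed the FDR (0.00889, edgeR) but at 1.38-fold also fell short. The 95% interval of this difference ran from -0.75 to -0.18. *Gli3* was at 35.3 ± 7.78 CPM in XX and 36.3 ± 7.63 CPM in XY at 0 h, with a log2 difference of -0.05 and a 95% interval from -0.47 to 0.37. At 72 h its log2 difference was -0.46 (FDR 0.0794, edgeR). Without 1 XX library at 72 h (F11), the differences of *Smo* and *Gli3* were -0.61 and -0.69 and both were called.

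**Figure D2:**
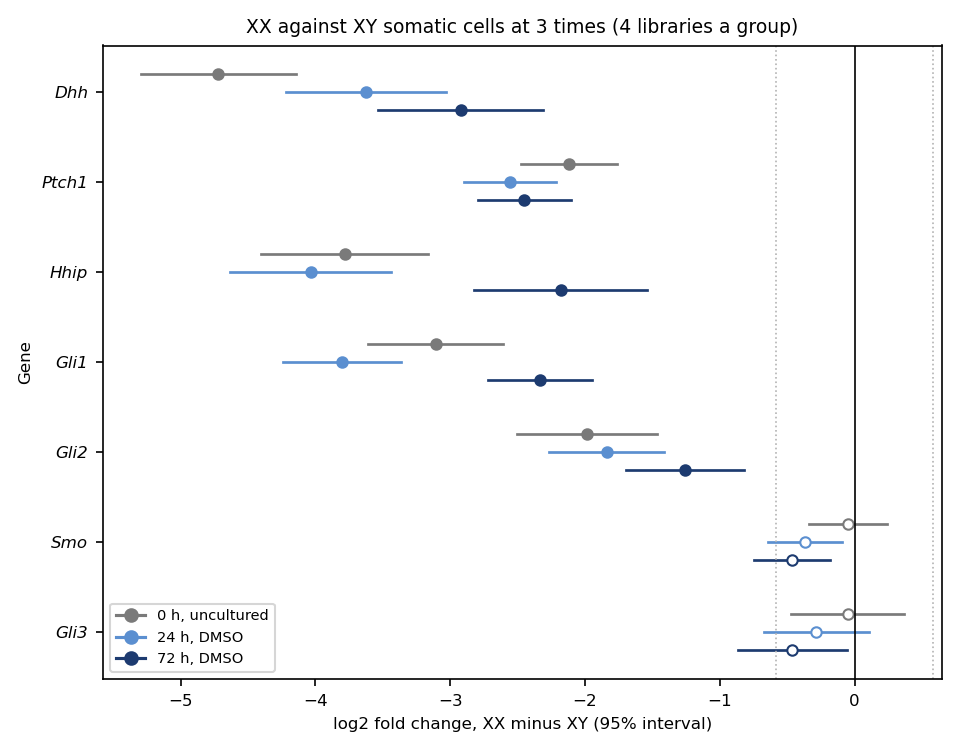
Log2 fold change of each gene, XX minus XY, at 0 h, 24 h and 72 h on the x axis, with the 95% interval as a line; filled points were called, open points were not, and dotted lines mark 1.5-fold. The points of *Dhh*, *Ptch1*, *Hhip*, *Gli1* and *Gli2* are filled and lie at -1.26 or below at all 3 times, and those of *Smo* and *Gli3* are open and lie between -0.47 and -0.05.

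The XX to XY gap of 2 readout genes narrowed between 24 h and 72 h. Each difference was taken within 1 set. The change in the difference was 1.47 for *Gli1* (SE 0.306, FDR 0.0021) and 1.86 for *Hhip* (SE 0.483, FDR 0.0221, both edgeR). These made 2 of 7 members called in this direction, against 1.17% of all genes tested. For *Gli1* the group means were 7.01 CPM at 24 h and 20.6 CPM at 72 h in XX, beside 99.2 and 106 CPM in XY. For *Hhip* they were 3.38 and 5.24 CPM in XX, beside 56.1 and 23.6 CPM in XY. *Ptch1* had a change of 0.11 (95% interval -0.38 to 0.59) and was not called, and *Dhh* a change of 0.70 (95% interval -0.25 to 1.65). Neither *Gli1* nor *Hhip* was called with voom and treat. Leaving out 1 library at a time ended the call of *Hhip* in 5 of 16 cases (XX F5 or F6 at 24 h, XX F4, F7 or F8 at 72 h), with FDRs up to 0.071, and that of *Gli1* in none. The summed foetal Leydig cell markers moved too, in XX from 191 to 249 CPM at 24 h to 537 to 650 CPM at 72 h. In XY in DMSO they summed to 693 to 1010 CPM at 24 h and 455 to 716 CPM at 72 h. The list was split at 72 h, with *Hsd3b1* called higher in XX and *Cyp11a1*, *Cyp17a1* and *Hsd17b3* called lower. The part of these markers in the *Gli1* and *Hhip* result was not tested. Between 0 h and 24 h no member's difference was called, where 6.20% of all genes tested were, and changes lay between -0.70 and 1.10.

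Culture itself was followed from 0 h to 24 h in DMSO, within set 3. In XY somatic cells *Dhh* fell from 194 ± 25.8 to 67.2 ± 19.4 CPM (SD, n = 4), and the libraries of the 2 groups did not overlap. The log2 fold change was -1.53 (SE 0.205, FDR 7.62e-08, edgeR). Over the same time *Gli1* rose from 57.1 ± 15.3 to 99.2 ± 16.3 CPM, a log2 fold change of 0.78 (SE 0.170, FDR 0.000412, edgeR), again without overlap. *Gli2* rose by 0.61 on the log2 scale (SE 0.198, FDR 0.0195, edgeR), with overlapping libraries. *Gli2* lost its call when any of 4 single libraries was left out (M2 or M6 at 0 h, M3 or M4 at 24 h), with FDRs up to 0.107, and neither *Gli1* nor *Gli2* was called with voom and treat. Thus 2 of 7 members were called higher and 1 lower after 24 h of culture, against 8.90% and 5.50% of all genes tested. *Ptch1* (0.32), *Smo* (0.20), *Gli3* (0.11) and *Hhip* (-0.04) were not called.

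Other Sertoli cell genes fell over the same time. Of 9 Sertoli markers, 6 were called lower in XY at 24 h than at 0 h, *Sox9*, *Sox8*, *Dmrt1*, *Ptgds*, *Cbln4* and *Mro*, with a median log2 fold change of -0.86 over the list beside 0.03 over all genes tested. The summed level of the list was 1470 to 1583 CPM at 0 h and 730 to 1183 CPM at 24 h. *Dhh* equalled 12.8 ± 1.4% of this sum at 0 h and 7.78 ± 1.09% at 24 h (SD, n = 4), without overlap between the libraries. Of the Schwann cell precursor markers, *Sox10* fell and *Erbb3* rose in XY over this time. In XX somatic cells 0 of 7 members were called over the same time, against 7.73% of all genes tested, and all had an FDR of at least 0.0682 by edgeR. *Gli2* had the largest value there, 0.75, and without 1 library at 0 h (F5), in which it was at 17.0 CPM beside 2.65 to 7.69 CPM in the others, it was 1.45 and called.

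MEKi was compared with DMSO in XY somatic cells. At 72 h *Ptch1* was lower with MEKi, and it was the 1 member of 7 called in this comparison, against 4.19% of all genes tested called lower. *Ptch1* was at 211, 169, 176 and 200 CPM in DMSO and at 108, 126, 114 and 122 CPM with MEKi. No MEKi library reached the lowest DMSO library. The log2 fold change of *Ptch1* was -0.69 (SE 0.152, 95% interval -0.99 to -0.38, FDR 0.00162, edgeR), which is 1.61-fold lower. Leaving out each library gave values from -0.74 to -0.63, all called, but with voom and treat against a threshold of 1.5-fold it was not called. *Dhh* was at 59.6, 60.1, 61.3 and 36.6 CPM in DMSO and at 28.9, 31.7, 41.4 and 35.6 CPM with MEKi. One DMSO library (M6) lay among the MEKi libraries and the rest above them. The log2 fold change of *Dhh* was -0.65 (SE 0.237, 95% interval -1.13 to -0.18, FDR 0.0621, edgeR) and was not called. Without M6 it was -0.80 with an FDR of 0.0285.

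The other readout genes showed no call with MEKi at 72 h. *Gli1* was at 106 ± 7.92 CPM in DMSO and 92.4 ± 13.0 CPM with MEKi (SD, n = 4), with a log2 fold change of -0.21 and a 95% interval from -0.54 to 0.12. *Hhip* was at 23.6 ± 5.47 and 18.2 ± 3.66 CPM, with a log2 fold change of -0.38 and an interval from -0.90 to 0.14. *Gli2*, *Smo* and *Gli3* had log2 fold changes of -0.08, -0.19 and -0.28. After 24 h of MEKi, 0 of 7 members were called, against 3.27% of all genes tested. At that time *Hhip* had the lowest value, -0.64 (SE 0.218, FDR 0.0828, edgeR), from 46.0, 69.3, 63.4 and 45.5 CPM in DMSO and 30.8, 29.2, 52.1 and 30.1 CPM with MEKi. In all, 3 of the 4 MEKi libraries lay below all DMSO libraries, and without the fourth, M4, *Hhip* was called at -0.91. *Dhh* was at 86.7 ± 20.3 CPM with MEKi and 67.2 ± 19.4 CPM in DMSO at 24 h, and *Ptch1* at 161 ± 24.9 and 169 ± 35.8 CPM. The change in the MEKi effect from 24 h to 72 h was -1.02 for *Dhh* (SE 0.318, FDR 0.094) and -0.62 for *Ptch1* (SE 0.212, FDR 0.138, both edgeR). Neither was called, and 1.41% of all genes tested were. The change of *Dhh* was called without DMSO library M2 (-1.22) or MEKi library M4 (-1.15) at 24 h, or DMSO library M6 at 72 h (-1.17).

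FGFRi gave no call among the members. At 72 h *Dhh* was at 61.6, 79.0, 131 and 85.1 CPM with FGFRi, all above the 4 DMSO libraries, the nearest of which was at 61.3 CPM. The log2 fold change was 0.72 (SE 0.219, 95% interval 0.28 to 1.16) with an FDR of 0.0605 by edgeR. The value rested in part on 1 FGFRi library, M5. Without it the log2 fold change was 0.47 (FDR 0.48), and without FGFRi library M2 it was 0.86 and called (FDR 0.0209, both edgeR). *Ptch1* was at 179, 197, 94.5 and 135 CPM with FGFRi, a log2 fold change of -0.33 (95% interval -0.63 to -0.03, FDR 0.287). *Gli3* had a log2 fold change of -0.61 (FDR 0.0977), or -0.76 and called without FGFRi library M4 (FDR 0.0469), and *Gli1*, *Gli2*, *Smo* and *Hhip* lay between -0.32 and 0.14. The count of 0 of 7 stood against 1.80% of all genes tested. Library M5 held the highest *Dhh* and the lowest *Ptch1*, *Gli1*, *Gli2* and *Hhip* of its group, at 131, 94.5, 56.2, 24.7 and 15.4 CPM. In M5 the Sertoli list summed to 1468 CPM, against 858 to 974 CPM in the other FGFRi libraries. The interstitial progenitor list summed to 1217 CPM in M5, against 1847 to 2159 CPM in the others. The part of these lists in the M5 values was not tested.

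At 24 h *Dhh* was at 106 ± 29.2 CPM with FGFRi and 67.2 ± 19.4 CPM in DMSO (SD, n = 4). The control was in the other set, and the log2 fold change was 0.66 with an FDR of 0.0506 (edgeR). It was called without DMSO library M2 (0.84) or without FGFRi library M4 (0.80). *Ptch1* was at 209 ± 16.8 and 169 ± 35.8 CPM. Here 0 of 7 members were called and 3.27% of all genes tested were. Both inhibitors were also set against each other at 72 h, within set 4. *Dhh* was lower with MEKi than with FGFRi, and no MEKi library (28.9 to 41.4 CPM) reached the lowest FGFRi library (61.6 CPM). The log2 fold change, MEKi minus FGFRi, was -1.38 (SE 0.228, FDR 1.8e-05, edgeR), or 2.60-fold. It was -1.13 without M5 and was called in each of the 8 fits with 1 library left out, but not with voom and treat. *Dhh* was the 1 of 7 members called, against 4.69% of all genes tested called lower with MEKi. *Ptch1* had a log2 fold change of -0.36 (95% interval -0.67 to -0.05, FDR 0.134).

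**Figure D3:**
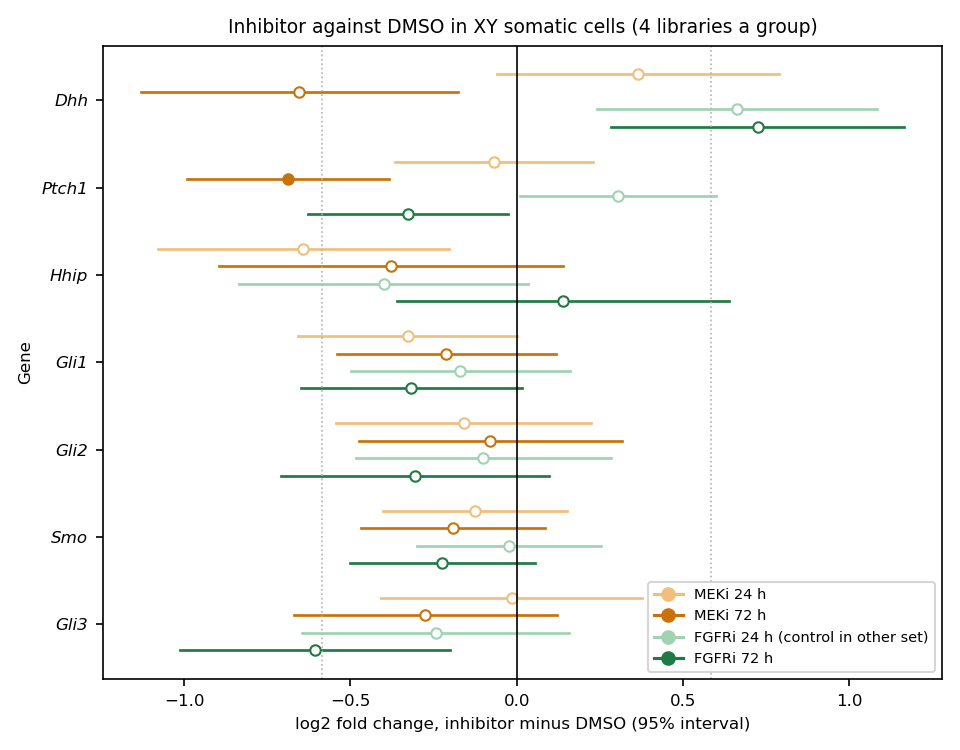
Log2 fold change of each gene in XY somatic cells, inhibitor minus DMSO, on the x axis, with the 95% interval as a line; filled points were called, open points were not, and dotted lines mark 1.5-fold in either direction. The 1 filled point is *Ptch1* with MEKi at 72 h at -0.69, and *Dhh* at 72 h lies at -0.65 with MEKi and at 0.72 with FGFRi.

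Marker lists moved beside these values at 72 h. With MEKi, 5 of 9 Sertoli markers were called lower, *Sox9*, *Amh*, *Dmrt1*, *Mro* and *Sox8*, with a list median of -0.998 beside 0.00 over all genes tested. The list summed to 466 to 655 CPM with MEKi and 628 to 946 CPM in DMSO. *Dhh* equalled 6.52 ± 0.40% of that sum with MEKi and 6.89 ± 1.24% in DMSO (SD, n = 4), ranges that overlapped. With FGFRi, 0 of 9 Sertoli markers were called, the list median was 0.46, and *Dhh* equalled 8.41 ± 1.13% of the sum. Between MEKi and FGFRi, 8 of 9 Sertoli markers were called lower with MEKi, all but *Cbln4*. The Schwann cell precursor list summed to 13.5 to 28.9 CPM with MEKi, 28.6 to 42.7 CPM in DMSO and 37.7 to 60.5 CPM with FGFRi. Of its 3 markers tested, *Erbb3* was called lower with MEKi than with DMSO, and *Erbb3* and *Sox10* lower with MEKi than with FGFRi.

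On the receiving side, the interstitial progenitor list summed to 1969 to 2677 CPM with MEKi and 2048 to 2607 CPM in DMSO at 72 h, ranges that overlapped. *Ptch1* equalled 4.37 to 5.81% of that sum with MEKi and 7.67 to 9.59% in DMSO. *Gli1* equalled 3.73 to 3.84% with MEKi and 3.85 to 5.37% in DMSO. Of 7 foetal Leydig cell markers tested, 4 were called higher with MEKi at 72 h, *Cyp11a1*, *Cyp17a1*, *Fdx1* and *Hsd3b1*, and the list summed to 897 to 1386 CPM against 455 to 716 CPM in DMSO. Of 6 endothelial markers, 5 were called lower with MEKi at 72 h and 6 at 24 h. The part of the Sertoli, Schwann cell precursor, interstitial progenitor, Leydig and endothelial lists in the values of *Dhh*, *Ptch1* and *Gli1* was not tested.

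**Figure D4:**
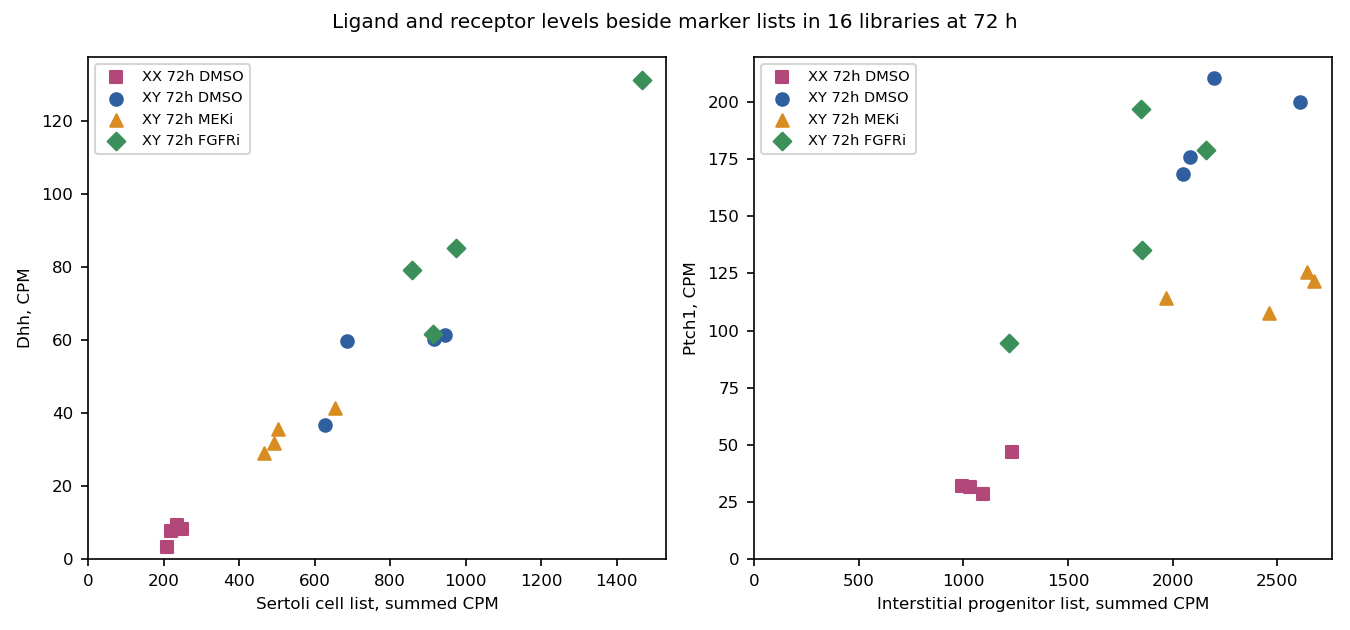
The 16 libraries at 72 h, each a point, with *Dhh* CPM against the summed CPM of the Sertoli list on the left and *Ptch1* CPM against the summed CPM of the interstitial progenitor list on the right; shape and colour give the group. On the left the MEKi libraries lie at the lower end of the XY libraries on both axes and FGFRi library M5 at the upper end. On the right the MEKi libraries, at 108 to 126 CPM of *Ptch1*, lie below the DMSO libraries, and their ranges of the list overlap.

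The order of the levels over the 10 groups followed the same split. *Dhh* was highest in XY 0 h, apart from all other groups, and next in XY 24 h FGFRi, XY 72 h FGFRi, XY 24 h MEKi, XY 24 h DMSO, XY 72 h DMSO and XY 72 h MEKi. Each of these neighbours overlapped in its libraries. The 3 XX groups came last, without overlap with XY 72 h MEKi. For *Ptch1* the order ran from XY 24 h FGFRi at 209 CPM to XY 72 h MEKi at 117 CPM and then to XX, and only the step to XX was free of overlap. *Gli1* was highest in XY 72 h DMSO at 106 CPM and lowest in XX 24 h at 7.01 CPM, and XX 72 h stood apart from both its neighbours. For *Smo* and *Gli3* no neighbouring groups were free of overlap, and the highest mean was 1.53 times the lowest for each.

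Over the 10 group means of log2 CPM, the genes whose pattern was most like that of *Dhh* were *Sox9* (Pearson r 0.994), *Spp1* (0.992), *Sox10* (0.980), *Aard* (0.980) and *Padi2* (0.979), among 12981 genes averaging 5 CPM or more over the 40 libraries, with the members left out. *Sox9*, the transcription factor of Sertoli cell fate, was at 319 CPM in XY and 91.6 CPM in XX at 72 h in DMSO. The genes most like *Gli1* were *Fat3* (0.990), *Bdnf* (0.986), *Sostdc1* (0.9855), *Ednra* (0.985) and *Vcan* (0.984). With a prior count of 0.5 the 5 genes for *Dhh* were the same, while 4 of the 5 for *Gli1* remained and *Mtus1* took the place of *Bdnf*. Among the members, *Hhip* (0.970) and *Ptch1* (0.931) were closest to *Dhh*, and *Gli2* (0.9605) and *Ptch1* (0.958) closest to *Gli1*. The 10 means share 40 libraries in 2 sets and are dominated by the split between XX and XY, so these values are a description.

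Of 33 other hedgehog genes, 29 passed the filter. The ligands *Shh* and *Ihh* did not, with at most 4 and 6 counts in any library, so that *Dhh* was the 1 hedgehog ligand gene tested. *Foxf1* and *Foxf2*, forkhead genes of hedgehog-responsive mesenchyme, did not pass either. *Foxf1* was at 3.22 CPM in XY and 0.149 CPM in XX at 72 h in DMSO, with p = 0.0571 in a two-sided exact permutation test, and at 1.21 and 0.0619 CPM at 24 h, with p = 0.0286, the smallest such a test of 4 against 4 allows. Adjusted over 20 such tests, both had p = 0.571 (exact permutation test). An adjusted p under 0.05 would have needed most of the 20 tests to reach that smallest p, so no conclusion is drawn.

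Between XX and XY, 3 of the 29 were called lower in XX at 0 h and 5 each at 24 h and 72 h. Of all genes tested, 9.32%, 10.3% and 10.8% were called lower at these times. Called higher in XX were 3, 2 and 1 of the 29, beside 8.01%, 9.24% and 9.47% of all genes tested. The list medians were 0.12, 0.01 and -0.05. Those lower in XX at 72 h included *Gpc3*, *Gpr161*, *Scube1* and *Osr1*. *Gpc3*, a glypican that binds hedgehog ligand, was at 266 CPM in XX and 659 CPM in XY, and *Osr1*, a zinc finger factor of mesenchyme, at 27.4 CPM in XX and 79.2 CPM in XY. *Gpr161*, a ciliary receptor that restrains the pathway, had a log2 difference of -1.19, and *Scube1*, which aids release of the ligand, one of -0.65. *Scube2*, of the same family, was the 1 gene called higher in XX at 72 h, at 16.3 CPM against 8.10 CPM, whereas at 0 h it was called lower in XX, at 1.46 CPM against 10.4 CPM. With voom and treat *Gpr161*, *Scube1* and *Scube2* were not called at 72 h, and *Gpc3* and *Osr1* were.

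With the inhibitors few of these genes were called. *Ccnd1*, a cyclin and a target of hedgehog as well as of MAPK signalling, was lower with MEKi at 24 h (-0.87, FDR 0.0267), with MEKi at 72 h (-1.49, FDR 0.000104) and with FGFRi at 72 h (-1.45, FDR 0.000786, all edgeR), and at -1.33 with FGFRi at 24 h, across sets. With DESeq2 *Ccnd1* was not called at 24 h with MEKi (FDR 0.071), and with voom and treat it was called in none of the 3 comparisons within a set. At 72 h it was at 107 CPM in DMSO, 38.3 CPM with MEKi and 39.0 CPM with FGFRi. It was the 1 gene of the 29 called with MEKi at 24 h and with FGFRi at 72 h. Of all genes tested, 3.27% and 1.80% were called in these comparisons. At 72 h of MEKi, 2 of 29 were called higher, against 2.29% of all genes tested: *Osr1* at 155 CPM against 79.2 CPM in DMSO (0.97, SE 0.197, FDR 0.000638, edgeR) and *Scube2* at 18.2 CPM against 8.10 CPM (1.16, SE 0.302, FDR 0.0075, edgeR). Both groups of libraries were free of overlap for each gene, but neither was called with voom and treat. *Osr1* and *Scube2*, with the co-receptor *Boc*, were also the 3 of 29 called higher with MEKi than with FGFRi, against 1.74% of all genes tested. With FGFRi at 24 h *Ccnd1* was the 1 gene called lower and *Mycn* the 1 called higher, where 3.27% of all genes tested were called. The effect of MEKi changed between 24 h and 72 h for *Osr1* alone, by 1.21, where 1.41% of all genes tested were called. In culture from 0 h to 24 h, 5 of 29 rose and 2 fell in XY, and 2 rose and 1 fell in XX. Of all genes tested, 8.90% were called higher and 5.50% lower in XY, and 7.73% in either direction in XX. The XX minus XY difference changed upwards for 1 and downwards for 3 of the 29 between 0 h and 24 h, where 6.20% of all genes tested were called. Between 24 h and 72 h it changed downwards for *Osr1* alone. The list medians with MEKi at 24 h, MEKi at 72 h and FGFRi at 72 h were 0.01, 0.01 and -0.14, beside medians of all genes tested of -0.01, 0.00 and -0.00.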

How the data were processed

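Gene expression was measured by 3′ RNA-seq with molecular identifiers in 40 libraries of GFP-negative gonadal cells. The authors demultiplexed and counted the reads with scPipe and Rsubread on GRCm39 and deposited 1 table of counts, whole and not normalised. Sources differ on the length of the molecular identifier. The labels list the libraries by name and omit 1 (XY 24 h MEKi M2), which is a column of the table and in the deposited barcode list, so it was kept. Per the labels, limma and edgeR were also used.

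Counts were analysed in R 4.3.3 with edgeR 4.0.16: genes kept by filterByExpr (15125 of 42422), TMM scaling, and a quasi-likelihood fit of 10 group means over all 40 libraries. Benjamini-Hochberg adjustment ran over all genes tested, and calls needed an FDR under 0.05 and 1.5-fold. CPM used TMM-scaled library sizes, and likeness used log2 CPM with a prior count of 2. Gene names came from GENCODE release M39 for 40391 IDs, which held 99.0% of counts. Alternatives were RLE scaling, no composition factor, DESeq2 1.42.0, no filter, 1 CPM or more in 4 libraries as the filter, limma 3.58.1 (voom quality weights with treat, as in the study's methods), only the time points compared, a replicate block, and each library left out. The fit was tested on simulated counts. Whether equal replicate numbers mark pairs was checked by correlating deviations from group means in 26 pairs of libraries with the same number, over 10 comparisons, where r lay between -0.205 and 0.173. The motif search with 2 mismatches was added after the data were seen.

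The 7 genes, the gene lists and the tests were chosen with earlier results of these data known. Named by rule were the 7 genes, *Shh*, *Ihh*, every other listed hedgehog gene called between the sexes at 72 h or with MEKi or FGFRi against DMSO within a set, markers called beside a result, and the 5 genes most like *Dhh* and *Gli1*. *Foxf1*, *Foxf2*, *Boc* and *Mycn* were named after their values were seen. Some listed genes that the rule names are not reported here.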

Additional observations from a re-analysis of the deposited data

Results flagged for a closer look

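Among 70 sets of 4 libraries (7 genes in 10 groups), 3 had 1 library far from the other 3, with a gap to the nearest above Dixon's 95% critical share of the whole range, and chance alone gives this in about 1 of 20 sets. *Dhh* was at 36.65 CPM in XY 72 h DMSO library M6, and *Gli1* was at 118 CPM in XY 72 h DMSO library M2. *Hhip* was at 52.07 CPM in XY 24 h MEKi library M4. Without M6 the MEKi difference of *Dhh* at 72 h was called, and without M4 the MEKi difference of *Hhip* at 24 h was.

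The XX minus XY difference changed from 24 h to 72 h by 1.474 on the log2 scale for *Gli1* (FDR 0.0021) and by 1.857 for *Hhip* (FDR 0.0221) in edgeR's test of the difference itself.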

How the results depend on the processing

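None of the 13 counts and 43 log2 fold changes followed through the settings was reversed. Some other values near 0 changed sign, such as *Gli1* in XX culture, from 0.08 to -0.19 without XX 0 h library F5. The genes called between the sexes numbered 5 at 0 h and 24 h in every setting. At 72 h the count was 5 to 7 with 1 library left out. Leaving out 1 library gave 2 to 3 calls for culture in XY, 1 to 2 for the change of the sex difference from 24 h to 72 h, 1 to 2 for MEKi at 72 h, 1 for MEKi against FGFRi, and 0 to 1 for culture in XX, the change of the sex difference from 0 h to 24 h, MEKi at 24 h, FGFRi at either time and the change of the MEKi effect.

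With voom and treat, culture in XY had 1 call, and the change of the sex difference from 24 h to 72 h, MEKi at 72 h and MEKi against FGFRi had 0. Without a filter on low counts there was 1 call each for culture in XX, the change of the sex difference from 0 h to 24 h, MEKi at 24 h, FGFRi at 24 h and FGFRi at 72 h, and there were 2 each for MEKi at 72 h and the change of the MEKi effect. DESeq2 gave 1 for culture in XX. RLE scaling gave 1 for FGFRi at 24 h, and a filter of 1 CPM in 4 libraries gave 1 for FGFRi at 72 h. With only the time points compared there were 2 for MEKi at 72 h and 1 each for FGFRi at 72 h and at 24 h. The cause was not tested.

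Equal replicate numbers were not established as pairs, since r was over 0.1 in 5 of 26 pairs of libraries with the same number. With the replicate block there were 6 calls between the sexes at 72 h, 2 for culture in XY, 0 for the change of the sex difference from 24 h to 72 h and 1 for FGFRi at 72 h, and *Gpr161*, *Scube1* and *Scube2* between the sexes at 72 h and *Ccnd1* with MEKi at 24 h were not called, but only 1 of 4 XX 72 h libraries has a number found in another group. Without a composition factor the median of all genes moved by up to 0.132 on the log2 scale. At 2 to 37 counts per XX library, *Dhh* and *Hhip* levels in XX are limited by depth.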
